A study of Mus musculus with 2 samples.

Results

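The genes described here are the IL-17 cytokines made by T helper 17 (Th17) cells, Il17a and Il17f, with the 5 IL-17 receptor chain genes Il17ra, Il17rb, Il17rc, Il17rd and Il17re and the receptor adaptor gene Traf3ip2. They were taken by symbol, and all 8 were listed in both libraries, among 15574 genes with reads in at least 1 of them. Naive mouse T cells of C57BL/6 background, labelled either CREB KO or wildtype, were grown in vitro into Th17 cells over 6 days in IL-23, IL-1 beta, IL-6 and TGF-beta. Plate-bound CD3 antibody was then applied for 4 h before RNA was taken. The product of Creb1, CREB, is a DNA-binding factor that cyclic AMP signalling switches on, and the comparison asks which genes it regulates in these cells. The sources used here do not give the allele, the cells in which it was deleted, or the age and number of the animals.

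Each genotype had 1 library, of about 23938000 counted reads for the one labelled CREB KO and about 26525000 for the wildtype one. No p-value can be given, and each difference below lies between 2 libraries and not between genotypes. Creb1, the targeted gene, had 25 reads in the library labelled CREB KO and 13 in the wildtype library, so its count does not bear out the label. Where the deletion lies within the gene is not known here, so whether these reads fall in it cannot be told. Creb1 also has 3 curated RefSeq transcripts, which bears on a limit of the counts given below. Of the T cell markers, Cd3e had 10434 reads in the library labelled CREB KO and 11102 in the wildtype library, and Cd4 had 19552 in the library labelled CREB KO and 23125 in the wildtype library. Il23r, a Th17 marker that encodes a chain of the IL-23 receptor, had 517 reads in the library labelled CREB KO and 817 in the wildtype library. Il1r1, an IL-1 receptor gene on the list of Th17 markers, was nearly absent, with 0 reads in the library labelled CREB KO and 3 in the wildtype library. Markers of natural killer, B, myeloid and epithelial or stromal cells summed to between 1.21 and 4.17 CPM (counts scaled to library size) in the library labelled CREB KO and between 1.44 and 3.78 CPM in the wildtype library. At 0 in both libraries were 2 of 4 natural killer markers, among them Ncr1, 2 of 5 B cell markers, among them Ms4a1, 4 of 8 myeloid markers, among them Lyz2, and 2 of 6 epithelial or stromal markers, among them Pdgfra. The marker with most reads on each of these lists was Klre1 (19 in the library labelled CREB KO and 37 in the wildtype library), Cd79a (26 in each), Cd14 (24 in the library labelled CREB KO and 21 in the wildtype library) and Epcam (60 in the library labelled CREB KO and 54 in the wildtype library). Of 2 CD8 T cell markers, Cd8a was at 0 and Cd8b1 had 234 reads in the library labelled CREB KO and 237 in the wildtype library. Gamma delta T cells also make IL-17. Of their 5 markers the 4 receptor constant genes were at 0, but the alpha beta constant genes Trac, Trbc1 and Trbc2, which these T cells use, were at 0 as well, so a 0 in these files does not show that a gene was not expressed. Sox13, the other gamma delta marker, had 2 reads in each library. The part of other cell types in the results was not tested.

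IL-17A and IL-17F are secreted as dimers, alone or with each other, and act on epithelial, stromal and myeloid cells, where they drive chemokine and antimicrobial genes. Both bind a receptor built from IL-17RA and IL-17RC. IL-17RA also pairs with IL-17RB for the cytokine IL-25 and with IL-17RE for IL-17C. The adaptor Act1, encoded by Traf3ip2, docks on the inner part of these chains and recruits TRAF proteins. Th17 cells are thus mainly the source of the ligands, while the signalling they set off is best known in other cells.

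Both cytokine genes were lower in the library labelled CREB KO, Il17f by more than Il17a, while Il17ra and Traf3ip2, the abundant genes on the receiving side, were within 1.12-fold of the wildtype library. Il17rb, Il17rc, Il17rd and Il17re had at most 70 reads. In bulk RNA, fewer cells making a transcript and less of it per cell cannot be told apart.

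Levels are compared between genes as TPM, reads divided by the exon length of the gene and scaled to the same total in each library. Il17f stood at 779 TPM in the library labelled CREB KO (95% Poisson interval 766 to 793), against 2162 TPM in the wildtype library (2141 to 2183). Il17a stood at 720 TPM in the library labelled CREB KO (703 to 737), against 1225 TPM in the wildtype library (1204 to 1246). By this exon length, the cytokine genes were close together in the library labelled CREB KO and apart in the wildtype library. With the longest transcript as length, Il17f exceeded Il17a 1.86-fold in the library labelled CREB KO and 3.03-fold in the wildtype library. By TPM, Il17f ranked 164 of 14695 genes in the library labelled CREB KO and 70 of 14481 in the wildtype library. Il17a ranked 180 in the library labelled CREB KO and 118 in the wildtype library. The adaptor gene Traf3ip2 followed with 60.6 TPM (rank 2512) in the library labelled CREB KO and 62.8 TPM (rank 2445) in the wildtype library. Il17ra, which encodes the chain common to the IL-17 receptors, had 46.5 TPM (rank 3072) in the library labelled CREB KO and 52.1 TPM (rank 2843) in the wildtype library. Its level was below that of Traf3ip2 beyond counting error in both libraries.

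The remaining receptor chains lay far lower. Il17re, whose product forms the receptor for IL-17C with IL-17RA, had 1.07 TPM in the library labelled CREB KO (0.800 to 1.40) and 1.31 TPM in the wildtype library (1.02 to 1.65). Il17rd, also known for its product's inhibition of fibroblast growth factor signalling, had 0.209 TPM in the library labelled CREB KO (0.126 to 0.326) and 0.170 TPM in the wildtype library (0.0988 to 0.271). Il17rb had 0.0652 TPM in the library labelled CREB KO and 0.118 TPM in the wildtype library. Il17rc, the partner of Il17ra in the receptor for IL-17A and IL-17F, had 0.0452 TPM in the library labelled CREB KO and 0.0410 TPM in the wildtype library, on 1 read each. The order Il17f, Il17a, Traf3ip2, Il17ra, Il17re, Il17rd, Il17rb, Il17rc held in both libraries, but the intervals of Il17rd, Il17rb and Il17rc overlapped, so these 3 are not ordered by the data.

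**Figure D1:**
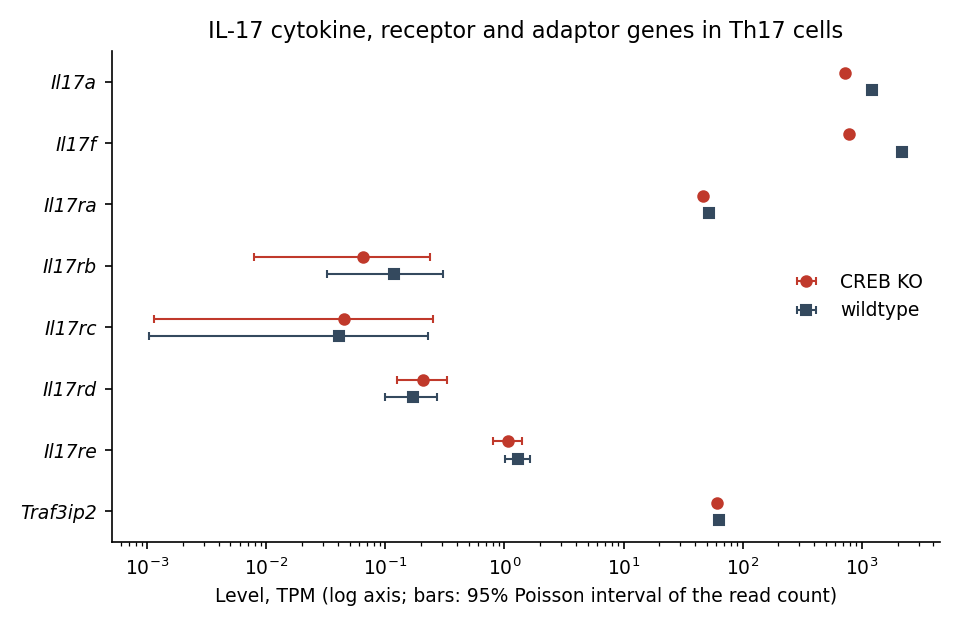
Level of each gene in TPM on a log axis in the library labelled CREB KO (circles) and the wildtype library (squares), with 95% Poisson intervals of the read count. Il17a and Il17f lie at 720 TPM or above in both libraries, Il17ra and Traf3ip2 between 46.5 and 62.8 TPM, and the other receptor chains at or below 1.31 TPM.

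The low counts of Il17rc and Il17re have a limit of their own. Il17re is annotated with 5 curated RefSeq transcripts and Il17rc with 2, while each of the other 6 genes has 1. Over all protein-coding genes, those with 1 curated transcript had a median of 9.78 TPM in the library labelled CREB KO and 9.71 in the wildtype library. Those with 2 had 4.37 TPM in the library labelled CREB KO and 4.38 in the wildtype library, and those with 3 or more had 2.59 TPM in the library labelled CREB KO and 2.51 in the wildtype library. Whether reads common to several transcripts were left uncounted was not tested, so the levels of Il17rc and Il17re may rest on part of their reads. The same holds for the count of Creb1, which has 3 curated transcripts. Il17rb has 141 bases of exon in common with Actr8 on the opposite strand, and Traf3ip2 has 293 in common with E130307A14Rik, also on the opposite strand. The sources used here do not give the strand setting of the counting. E130307A14Rik had 67 reads in the library labelled CREB KO and 86 in the wildtype library, few beside the reads of Traf3ip2 given below. Actr8 had 935 reads in each library, many beside the 2 and 4 of Il17rb. Whether the reads of Il17rb stem from Actr8 was not tested.

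Il17a lies on chromosome 1 of the mouse genome (GRCm38, 20730905 to 20734496, plus strand, 3 exons), next to Il17f (20777146 to 20790617, minus strand). Il17a had 6981 reads, 291 CPM, in the library labelled CREB KO, against 13093 reads, 495 CPM, in the wildtype library. That is 1.70-fold lower (1.65 to 1.75). Here and below, a range after a fold or ratio is the exact conditional binomial 95% interval, which covers counting error only and may be too narrow, because PCR copies of 1 molecule were not told apart. Il17f had 13041 reads, 543 CPM, in the library labelled CREB KO, against 39898 reads, 1508 CPM, in the wildtype library, 2.78-fold lower (2.72 to 2.83). The intervals of the cytokine genes do not overlap.

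In absolute terms Il17f differed by -965 CPM, library labelled CREB KO minus wildtype library, the largest loss of any gene in either file. The next in that order were Tpt1, Actg1, Eef1a1 and Vim, which had at least 2684 CPM in both libraries and ratios of 0.816 to 0.965. Il17f was thus the only one of these 5 with a ratio beyond 1.5-fold. Of 10462 genes that averaged at least 1 CPM, Il17f ranked 6 and Il17a 98 from the lowest ratio. Of the 7215 that averaged at least 10 CPM, where ratios carry less counting error, Il17f had the lowest and Il17a ranked 7. Genes of like level varied far less. Of 815 genes whose mean was within 2-fold of that of Il17a, the middle 95% had log2 ratios of -0.19 to 0.20, and Il17a, at -0.77, was the lowest. Of 220 genes within 2-fold of Il17f, the middle 95% ran from -0.22 to 0.18, and Il17f, at -1.47, was the lowest.

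**Figure D2:**
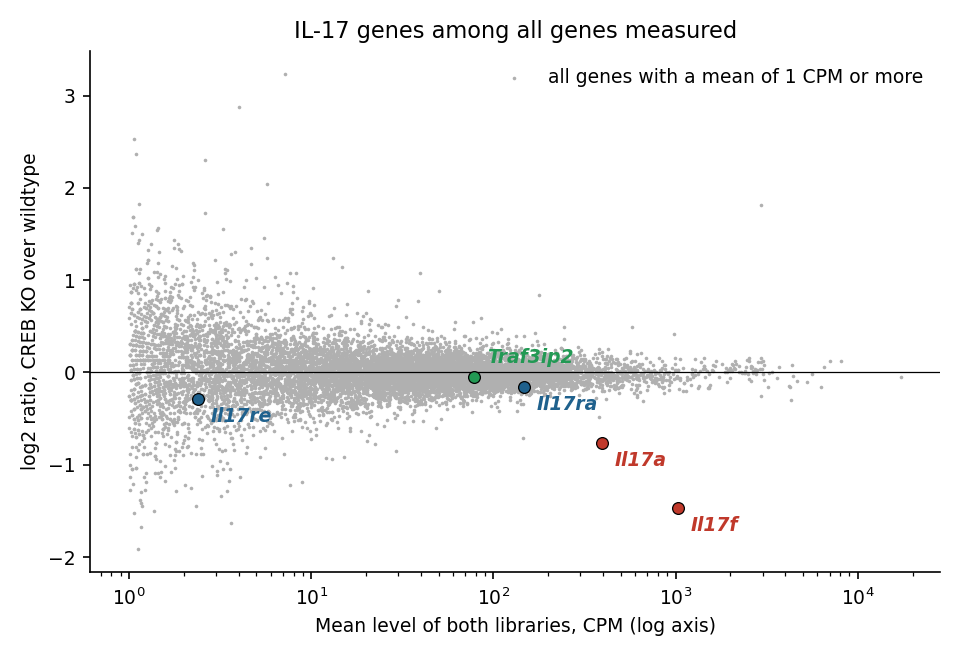
Each grey point is 1 of 10462 genes, with its mean level in CPM (log axis) across and its log2 ratio, library labelled CREB KO over wildtype library, up. Il17a (-0.77) and Il17f (-1.47) lie below the cloud of genes of their level, while Il17ra (-0.16), Il17re (-0.29) and Traf3ip2 (-0.05) lie inside it.

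The mix of the cytokine transcripts differed as well, a comparison that does not depend on library scaling. Il17f made up 65.1% of the reads of both genes in the library labelled CREB KO (exact binomial 95% interval 64.5 to 65.8), against 75.3% in the wildtype library (74.9 to 75.7). There were 1.87 Il17f reads per Il17a read in the library labelled CREB KO and 3.05 in the wildtype library, a ratio of ratios of 0.613 (0.592 to 0.635). Per exon length, Il17f exceeded Il17a 1.08-fold in the library labelled CREB KO and 1.76-fold in the wildtype library. With the longest transcript of each gene as its length, which shortens Il17f to 1178 bases in place of 2022, it exceeded Il17a 1.86-fold in the library labelled CREB KO and 3.03-fold in the wildtype library. The balance of the cytokines within a library therefore depends on the gene model, while the difference between libraries does not. Together, Il17a and Il17f took 0.0836% of all counted reads in the library labelled CREB KO (0.0825 to 0.0848) and 0.200% in the wildtype library (0.198 to 0.201). Their sum was 2.40-fold lower (2.36 to 2.44).

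The promoters of the cytokine genes are shown because CREB binds DNA at the palindrome TGACGTCA and, less tightly, at its core TGACG. The windows hold 250 bases before and 50 after the RefSeq start of each gene (GRCm38.p6), written 5′ to 3′ along the gene. For Il17a the window is chr1:20730655-20730954 on the plus strand, and for Il17f it is chr1:20784221-20784520 on the minus strand. Capitals mark TGACG (or CGTCA, its reverse complement) and AGGTCA (or TGACCT), the latter a motif read by nuclear receptors of the ROR family.
Il17a promoter: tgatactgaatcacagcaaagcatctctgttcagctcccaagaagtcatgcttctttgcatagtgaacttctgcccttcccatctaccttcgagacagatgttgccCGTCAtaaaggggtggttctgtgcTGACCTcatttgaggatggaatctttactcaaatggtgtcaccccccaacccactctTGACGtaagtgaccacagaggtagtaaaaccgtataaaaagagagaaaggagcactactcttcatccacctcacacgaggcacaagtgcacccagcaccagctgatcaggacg
Il17f promoter: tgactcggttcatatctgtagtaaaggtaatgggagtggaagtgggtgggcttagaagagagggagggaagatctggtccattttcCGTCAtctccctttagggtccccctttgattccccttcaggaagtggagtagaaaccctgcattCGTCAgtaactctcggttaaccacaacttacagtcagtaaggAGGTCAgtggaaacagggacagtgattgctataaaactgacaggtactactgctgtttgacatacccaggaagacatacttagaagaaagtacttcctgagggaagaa

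Neither window held the full palindrome, which occurred in 1.79% of 32851 mouse promoter windows of the same length. Each held TGACG at 2 places and AGGTCA at 1. In Il17a, matches of the core began 144 and 63 bases before the start and the ROR motif 120 bases before it. In Il17f, the core began 164 and 100 bases before the start and the ROR motif 58 bases before it. At least 1 core was present in 20.8% of all windows and 2 or more in 5.01%, while 16.3% held AGGTCA. Both conditions met by the cytokine genes, 2 or more cores and a ROR motif, held in 0.514% of windows. This joint condition was set from what these windows held, so its low share is no support for either motif. The palindrome contains the core on both strands, and many genes have several windows. Of the receptor chains, Il17rb, Il17rc, Il17rd and Il17re had a window in the table, and none of the 4 held any of the 3 motifs. Their GC content was 72.0%, 58.7%, 58.3% and 53.7%, above the 48.3% of Il17a and the 46.3% of Il17f. The median over all 32851 windows was 52.7%, near that of Il17re. Windows for Il17ra and Traf3ip2 were not used here. A match describes letters and does not show binding.

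Il17ra and Traf3ip2 had ratios near 1. Il17ra (chromosome 6, 120463247 to 120487559, plus strand) had 3337 reads, 139 CPM, in the library labelled CREB KO, against 4116 reads, 156 CPM, in the wildtype library. It was 1.12-fold lower (1.07 to 1.17), beyond counting error but inside the range of genes of like level. The middle 95% of 2386 genes within 2-fold of its level had log2 ratios of -0.21 to 0.22, and Il17ra lay at -0.16, 173 from the lowest. Traf3ip2 (chromosome 10, 39612934 to 39655307, plus strand) had 1849 reads, 77.0 CPM, in the library labelled CREB KO and 2114 reads, 79.9 CPM, in the wildtype library. Its ratio of 0.964 (0.905 to 1.03) was not apart from 1 beyond counting error.

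Il17re (chromosome 6, 113458484 to 113470758, plus strand) had 52 reads in the library labelled CREB KO and 70 in the wildtype library, a ratio of 0.820 whose interval includes 1 (0.561 to 1.19). Il17rd (chromosome 14, 27038941 to 27107286, plus strand) had 19 reads in the library labelled CREB KO and 17 in the wildtype library, a ratio of 1.22 (0.606 to 2.52). Il17rb (chromosome 14, 29996135 to 30008896, minus strand) had 2 reads in the library labelled CREB KO and 4 in the wildtype library, a ratio of 0.603 (0.0499 to 3.85). Il17rc (chromosome 6, 113471427 to 113483140, plus strand) had 1 read in each library, which allows no ratio. At these counts a change of 2-fold in either direction was not detectable for Il17rb and Il17rc. For Il17rd a change to more than 2-fold lower lies outside the interval, and for Il17re a change beyond 2-fold in either direction does.

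**Figure D3:**
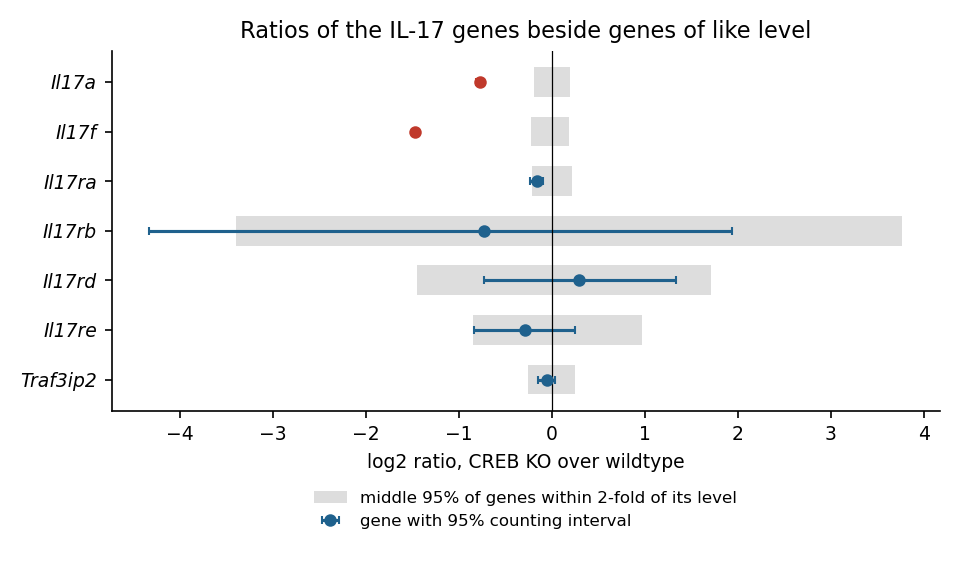
The log2 ratio, library labelled CREB KO over wildtype library, of 7 genes (points) with 95% counting intervals, drawn over the middle 95% of genes within 2-fold of the same level (grey bars). The cytokine genes at -0.77 and -1.47 lie outside their grey bars and the other 5 lie inside theirs, while Il17rc, with 1 read in each library, is not drawn.

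Set against Il17ra and Traf3ip2, the abundant genes of the receiving side, both cytokine genes stood lower in the library labelled CREB KO. Il17rb and Il17rc had too few reads to be set against. There were 3.91 Il17f reads per Il17ra read in the library labelled CREB KO and 9.69 in the wildtype library, 2.48-fold lower (2.36 to 2.61). For Il17a there were 2.09 in the library labelled CREB KO and 3.18 in the wildtype library, 1.52-fold lower (1.44 to 1.61). Against Traf3ip2, Il17f was 2.68-fold lower (2.50 to 2.86) and Il17a 1.64-fold lower (1.53 to 1.76). Against Il17re, Il17f was 2.27-fold lower (1.56 to 3.30), while for Il17a the interval included no difference (1.39-fold, 0.953 to 2.03). Il17ra against Traf3ip2 gave a ratio of ratios of 0.927 (0.857 to 1.002), so these abundant genes of the receiving side did not differ from each other beyond counting error.

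A gene was counted as higher or lower if its ratio reached 1.5-fold and its interval excluded 1, among genes averaging at least 1 CPM. Of the 8 genes, 5 passed this level, and Il17rb, Il17rc and Il17rd did not. Il17a and Il17f were lower, Il17ra, Il17re and Traf3ip2 were neither, and none was higher. Of all 10462 genes at this level, 1.5% were lower and 2.48% higher by the same rule. At 2-fold, Il17f was lower and the other 4 were neither, with 0.44% of all genes lower and 0.669% higher. At 1.5-fold, 17 of the 7215 genes averaging at least 10 CPM were lower, Il17a and Il17f among them, and 23 were higher.

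The genes whose log2 ratio was nearest to that of Il17a, among those averaging at least 10 CPM, were Lum, which encodes the matrix proteoglycan lumican, Frmd4b, and Cd24a, which encodes a surface glycoprotein. Lum had 397 reads in the library labelled CREB KO and 748 in the wildtype library, 1.71-fold lower (1.51 to 1.94). Frmd4b was 1.68-fold lower (1.48 to 1.91) and Cd24a, the one above 100 CPM in both libraries, 1.64-fold lower (1.56 to 1.72). These 3 lay 0.01 to 0.05 from Il17a on the log2 scale. The genes nearest to Il17f at that level lay 0.54 to 0.56 away. Among genes of 1 to 10 CPM there were closer ratios and lower ones. The 3 nearest at 10 CPM or more were Gm9199, Il1r2, which encodes a decoy receptor for IL-1, and Lpar6, a lysophosphatidic acid receptor gene. Il1r2 had 199 reads in the library labelled CREB KO and 417 in the wildtype library, 1.90-fold lower (1.60 to 2.26). Gm9199 was 1.91-fold lower (1.62 to 2.27) and Lpar6 1.88-fold lower (1.62 to 2.20). The likeness rests on 1 ratio between 2 libraries.

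The neighbours of the cytokine genes on chromosome 1 were at or near 0 on 1 side, and those with reads enough on the other had ratios below 1. Of the 6 nearest protein-coding genes before Il17a, 5 were at 0 in both libraries. The sixth, Pkhd1, which encodes the cilia protein fibrocystin, had 12 reads in the library labelled CREB KO and 4 in the wildtype library. Of the 6 after Il17f, 4 had a mean of 1 CPM or more, and all 4 had ratios below 1, as did 51.9% of all genes at that level. Mcm3, a subunit gene of the replicative helicase whose start lies 89.4 kb from that of Il17a, had 13310 reads in the library labelled CREB KO and 17612 in the wildtype library, 1.20-fold lower (1.17 to 1.23). Paqr8, a membrane progesterone receptor gene at 160 kb (159.701), had 481 reads in the library labelled CREB KO and 792 in the wildtype library, 1.49-fold lower (1.33 to 1.68). Tram2, at 348 kb, had 34 reads in the library labelled CREB KO and 59 in the wildtype library, 1.57-fold lower (1.02 to 2.48), the only one of the 4 past the 1.5-fold rule. Tmem14a, at 488 kb, had 52 reads in the library labelled CREB KO and 62 in the wildtype library, a ratio of 0.925 that was not apart from 1 (0.627 to 1.36). The intervals of all 4 lay above that of Il17f. The interval of Tram2 contained the ratio of Il17a (0.588). That of Paqr8 (0.596 to 0.751) lay above this ratio but overlapped the interval of Il17a (0.571 to 0.605). Such overlap does not decide whether Paqr8 and Il17a differ, and the 2 were not compared directly.

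**Figure D4:**
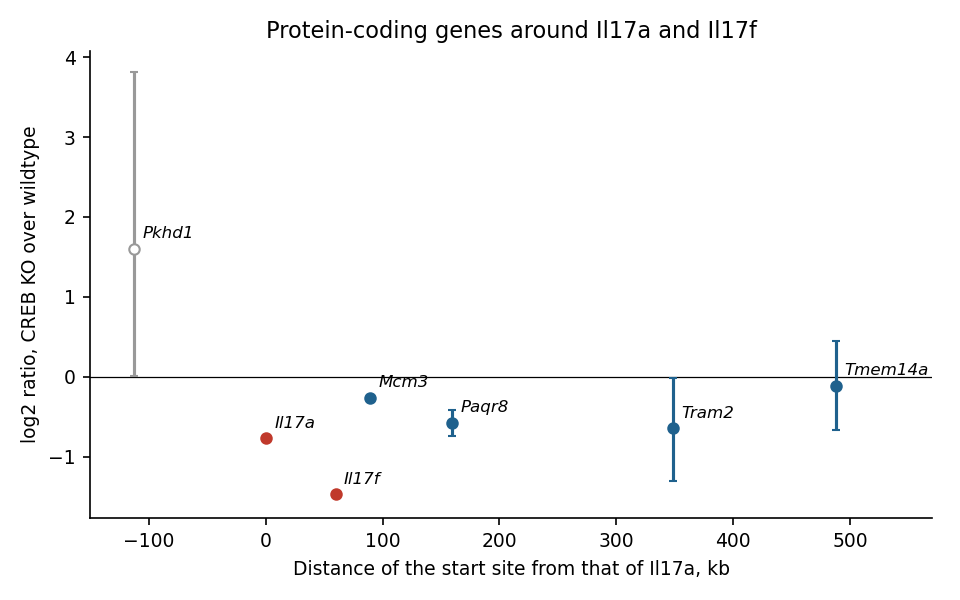
The log2 ratio, library labelled CREB KO over wildtype library, of protein-coding genes around the cytokine genes, by the distance of the annotated start from that of Il17a in kb, with 95% counting intervals. Filled points are genes whose mean reached 1 CPM, and the open point is Pkhd1, which lay under that level. Il17a and Il17f (-0.77 and -1.47) are followed by Mcm3 (-0.26), Paqr8 (-0.58), Tram2 (-0.65) and Tmem14a (-0.11).

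Il17re and Il17rc are neighbours too, on chromosome 6. Of the 6 protein-coding genes nearest to the pair, 4 had a mean of 1 CPM or more, of which 2 had ratios below 1 and none passed the 1.5-fold rule. Emc3 had 2530 reads in the library labelled CREB KO and 2967 in the wildtype library, a ratio of 0.940 (0.891 to 0.991). It was the only one of the 4 whose interval excluded 1. The ratios of the others were 0.940 (0.802 to 1.10) for Rpusd3, 1.22 (0.834 to 1.80) for Jagn1 and 1.06 (0.928 to 1.21) for Creld1.

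The other ligands of the family were at the limit of detection or unlisted. Il17c had 11 reads in the library labelled CREB KO and 7 in the wildtype library, a ratio of 1.68 (0.613 to 5.27). Il17d had 1 read in the library labelled CREB KO and 3 in the wildtype library, and Il25 had 2 in the library labelled CREB KO and 0 in the wildtype library, too few for a ratio. Il17b was unlisted in both, and whether reads of this gene were counted at all cannot be told. If they were, its absence allows up to 0.125 CPM in the library labelled CREB KO and 0.113 CPM in the wildtype library (3 counts per library). None of the 4 reached a mean of 1 CPM.

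Of 33 listed genes that carry the signal from the IL-17 receptor, 30 had a mean of 1 CPM or more and none was 1.5-fold higher or lower, beside 2.48% of all genes higher and 1.5% lower. A count of 0 among 30 is near those shares. There were 8 intervals above 1, 8 below and 14 that included it. Their median log2 ratio was 0.00, beside -0.01 over all genes. Traf6, whose product Act1 recruits, had 4330 reads in the library labelled CREB KO and 4677 in the wildtype library, a ratio of 1.02 (0.979 to 1.06). Tab1, which encodes a partner of the kinase TAK1, had the highest ratio, 1.27 (1.15 to 1.40). That of Traf3, the gene of a TRAF protein that restrains IL-17 signalling, was also 1.27, with an interval that includes 1 (0.978 to 1.65). Cebpd, which encodes a transcription factor of IL-17 responses, was at 0.700 (0.502 to 0.965) on 64 reads in the library labelled CREB KO and 101 in the wildtype library, and Ikbkb, a kinase gene of the NF-kappaB pathway, at 0.810 (0.669 to 0.979).

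Most of the listed genes that IL-17 induces in tissue cells averaged under 1 CPM. Of 22 listed, 9 were at 0 in both libraries and 5 reached a mean of 1 CPM, among them genes that T cells express themselves. Ptgs2, the gene of the inducible cyclooxygenase, had 89 reads in the library labelled CREB KO and 63 in the wildtype library, 1.55-fold higher (1.12 to 2.19). It no longer passed the rule when the deeper library was thinned. The chemokine gene Cxcl3 had 28 reads in the library labelled CREB KO and 64 in the wildtype library, 2.06-fold lower (1.31 to 3.36). The other 3 were neither: Ccl20, which encodes the ligand of CCR6, had a ratio of 1.43 (1.27 to 1.61), the growth factor gene Csf2 one of 1.39 (1.21 to 1.60) and Tnfsf11, which encodes RANKL, one of 1.14 (1.07 to 1.23). Below 1 CPM, the chemokine gene Cxcl2 had 23 reads in the library labelled CREB KO and 4 in the wildtype library, 5.72-fold higher (2.17 to 25.2). The median log2 ratio of the 5 was 0.47, with 4 of them above 0, and it was 0.19 when the listed genes under 1 CPM were taken in. Over all genes, the median was -0.01, 51.9% had ratios below 1, and 2.48% were higher and 1.5% lower by the 1.5-fold rule. With only 5 genes, no shift of the target genes is read from these values.

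Of 26 regulators of Il17a and Il17f transcription, 20 reached a mean of 1 CPM and none was 1.5-fold apart, again near the shares over all genes. There were 3 intervals above 1, 5 below and 12 that included it. Their median log2 ratio was -0.02, beside -0.01 over all genes. Rora, which encodes a nuclear receptor of the ROR family, had the lowest ratio, 0.772 (0.651 to 0.912), and Ahr, the gene of the aryl hydrocarbon receptor, one of 0.804 (0.715 to 0.902). Nfatc2, which encodes a factor activated by calcium signalling, had the highest, 1.35 (1.13 to 1.61). Gfi1, the gene of a repressor of the Th17 program, had one of 1.24 with an interval that includes 1 (0.891 to 1.73). Runx1 and Nfatc1 were listed in neither library.

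**Figure D5:**
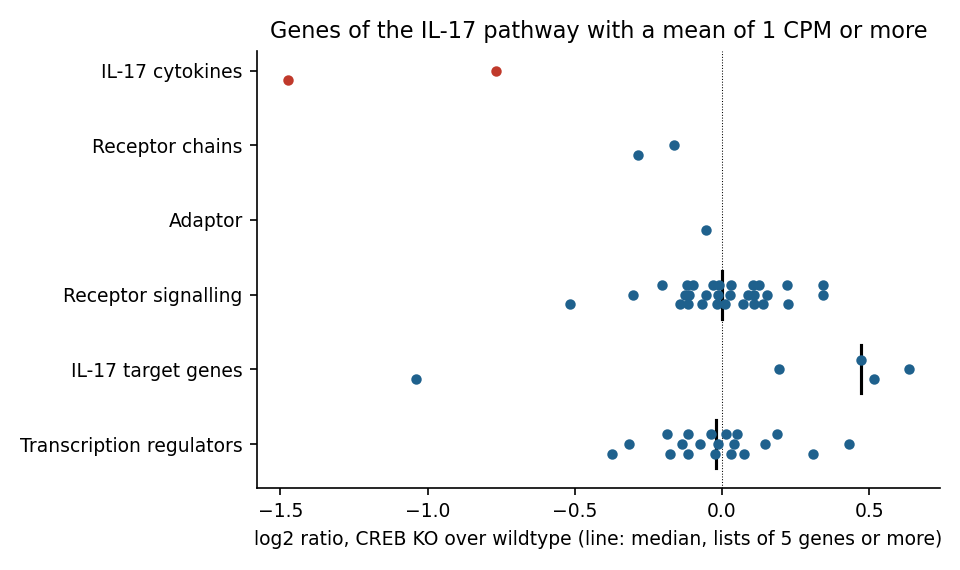
Each point is the log2 ratio, library labelled CREB KO over wildtype library, of 1 gene with a mean of 1 CPM or more, with the median of each list of 5 genes or more as a line. Il17a and Il17f (red) lie at -0.77 and -1.47. The medians of the signalling genes (0.00) and the regulators (-0.02) lie near 0, and that of the target genes, only 5, at 0.47.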

How the data were processed

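RNA of 2 libraries of Th17 cells, 1 labelled CREB KO and 1 wildtype, was measured after enrichment of messenger RNA, per the labels' protocols. For each gene symbol the deposited files give a raw count of unique reads, per the file headers. HTSeq, bcl2fastq and mm10 appear in the submitters' processing notes. The sources used here do not give the aligner, the annotation or the strand setting. Genes listed in 1 file only were taken as 0 in the other.

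Library sizes were adjusted by the trimmed mean of M-values (edgeR 4.0.16, R 4.3.3), and ratios were formed with a prior count of 0.5. With 1 library per group, edgeR's quasi-likelihood test could not be fitted. Intervals are exact (95%), and those of single counts are Poisson intervals. Exon lengths (union of exons) and positions come from GENCODE M21 on GRCm38 for 15408 of 15574 genes, promoters from RefSeq for 6 of the 8 genes. Python 3.11.15 was used with numpy 2.4.6, scipy 1.17.1, pandas 2.3.3 and matplotlib 3.10.9. Ratios and intervals were checked on simulated Poisson counts. These held counting error only, so library scaling and PCR copies were not covered.

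The genes named are the 8 members, the other IL-17 family ligands, up to 4 genes per pathway list with the largest ratios, the 3 genes nearest in ratio to each cytokine gene (mean of 10 CPM or more), the neighbours in the genome with a mean of 1 CPM or more and Creb1. Traf6, the cell type markers, Tnfsf11, Cxcl2, Runx1, Nfatc1, Pkhd1 and the genes of largest absolute loss were named after their values were seen. The members and lists were chosen with earlier results of these data known. Other settings tried were size factors from DESeq2 1.42.0, upper-quartile scaling, total counts with or without the 20 genes of highest count, a prior count of 5, a thinned deeper library, other filters and another exon length.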

Additional observations from a re-analysis of the deposited data

How the results depend on the processing

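The ratios of Il17a (0.587 to 0.591), Il17f (0.360 to 0.362), Il17ra (0.890 to 0.898) and Traf3ip2 (0.963 to 0.975) stayed within their counting intervals under the main settings and the 6 alternatives for scaling, prior count and depth. Without the filter on low counts, 521 of 15574 genes were higher and 300 lower by 1.5-fold. With a mean of 10 CPM, 23 of 7215 were higher and 17 lower, against 259 and 157 of 10462 under the main settings. These filters change only which genes are counted, not their ratios or intervals. Why the share of genes called differed between filters was not tested. Of the IL-17 target genes, 0 were higher with the deeper library thinned, 2 without the filter, and 0 higher and 0 lower with a mean of 10 CPM. Their median log2 ratio was 0.19 without the filter, against 0.47. With the longest transcript as length, Il17a stood at 526 TPM in the library labelled CREB KO and 896 in the wildtype library, and Il17f at 978 TPM in the library labelled CREB KO and 2714 in the wildtype library. No paired analysis was possible because there is 1 library per group, and for the same reason no library could be left out. Depth limits Il17rb, Il17rc and Il17rd, which had at most 19 reads.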
